A study of Homo sapiens with 12 samples.

Results

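SOCS and STAT cytokine signalling genes were examined in androgen-treated prostate cancer cells. They were chosen by name and are 10 of the 63677 genes counted in each sample: the receptor genes PRLR, IL6R and IL6ST, the transcription factor genes STAT3, STAT5A and STAT5B, and the inhibitor genes CISH, SOCS1, SOCS2 and SOCS3. The cells were LNCaP, an established human prostate cancer line that depends on androgen. A pair of TALENs, which are engineered nucleases, had been used to remove the CTG start codon of Bag-1L, the long protein form of the BAG1 gene, which encodes co-chaperones. The start codons of the other BAG1 protein forms were left in place. The resulting Bag-1L KO cells were compared with a TALEN control line transfected with the vector. Transfection was transient, cells were selected with G418, and KO cells were grown from single clones obtained by serial dilution. A difference between a clone and its control line therefore cannot be told apart from an effect of Bag-1L. RNA-seq was performed on both lines in full medium (FM), and after 72 h without hormone in charcoal-stripped serum followed by 16 h with the vehicle ethanol (EtOH) or with 10 nM dihydrotestosterone (DHT), an androgen. Each of the 6 groups held 2 replicates, giving 12 samples. The KO and control cells share the LNCaP background, and the EtOH and DHT groups share the hormone starvation.

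Cytokine receptors such as those for prolactin and interleukin-6 have no kinase of their own. When a ligand binds, receptor-bound Janus kinases phosphorylate the receptor tails and the STAT proteins, which pair, enter the nucleus and switch on target genes. Among those targets are the SOCS genes and CISH, whose products bind the receptors or the kinases and dampen the signal, so their mRNA is often read as a trace of STAT activity. In the prostate, prolactin signals through STAT5 and interleukin-6 through STAT3, and both pathways have been studied for their interplay with androgen signalling.

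Gene counts summed to between 20826843 and 30354666 per sample. Values below are normalized counts, which are read counts divided by the size factor of the sample. A gene was called when its DESeq2 Benjamini-Hochberg adjusted p, over all genes tested, did not exceed 0.05 and the fold change reached 1.5. Of the luminal prostate markers, KLK3 had 5353.8 to 23182.0 and KRT8 12504.2 to 58987.5 normalized counts per sample, whereas the leukocyte markers PTPRC and CD3E never exceeded 1 count and ITGAM, another of that list, had 1.0 to 11.3 normalized counts. Summed markers of basal cells ranged from 2.82 to 32.9 normalized counts, those of fibroblasts from 391 to 1020, nearly all from COL1A1, and those of endothelial cells from 133 to 242, nearly all from VWF. BAG1 itself had 1701.5 and 2702.6 normalized counts in control EtOH, and 1191.4 and 1103.0 in KO EtOH. Control DHT samples held 2198.9 and 2630.7, and KO DHT samples 1075.5 and 1113.6. Control FM samples held 2117.0 and 1967.7, and KO FM samples 1452.2 and 1576.1. BAG1 was called lower in KO in EtOH (log2 fold change -0.94, SE 0.18, adjusted p = 6.35e-06) and DHT (-1.14, SE 0.18, adjusted p = 7.71e-09), and in FM the difference was -0.43 (SE 0.18, adjusted p = 0.0682). These counts cover the whole gene, so they do not show whether the start codon was lost. Replicates differed most in control EtOH (median absolute difference 0.238 on the log2 scale over abundant genes), against 0.076 to 0.172 in the other groups.

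SOCS2 and IL6R rose with DHT in both lines and PRLR fell in both. SOCS2 was the member that moved most, by 7.25-fold in control and 5.04-fold in KO. CISH fell in control cells, narrowly past the threshold. STAT3, STAT5B and IL6ST, which were well covered, were not called, and STAT5A and SOCS1 were too scarce to receive an adjusted p. SOCS3 was scarce as well and was not called with DHT. With DHT in control, 4 of the 10 members were called, 2 higher and 2 lower, where 11.4% of all genes tested were called. With DHT in KO, 3 members were called, 2 higher and 1 lower, against 7.68% of all genes. All 10 members passed the minimum of 10 reads summed over the samples, and 8 received an adjusted p in these comparisons, STAT5A and SOCS1 being too scarce. Over those 8 the absolute log2 fold change had a median of 0.86 (control) and 0.84 (KO), beside 0.26 and 0.22 over all genes with an adjusted p. The members were chosen with earlier results of these data known, so setting them beside all genes is descriptive only. In bulk RNA, fewer cells that express a gene and less of its RNA per cell cannot be told apart.

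**Figure D1:**
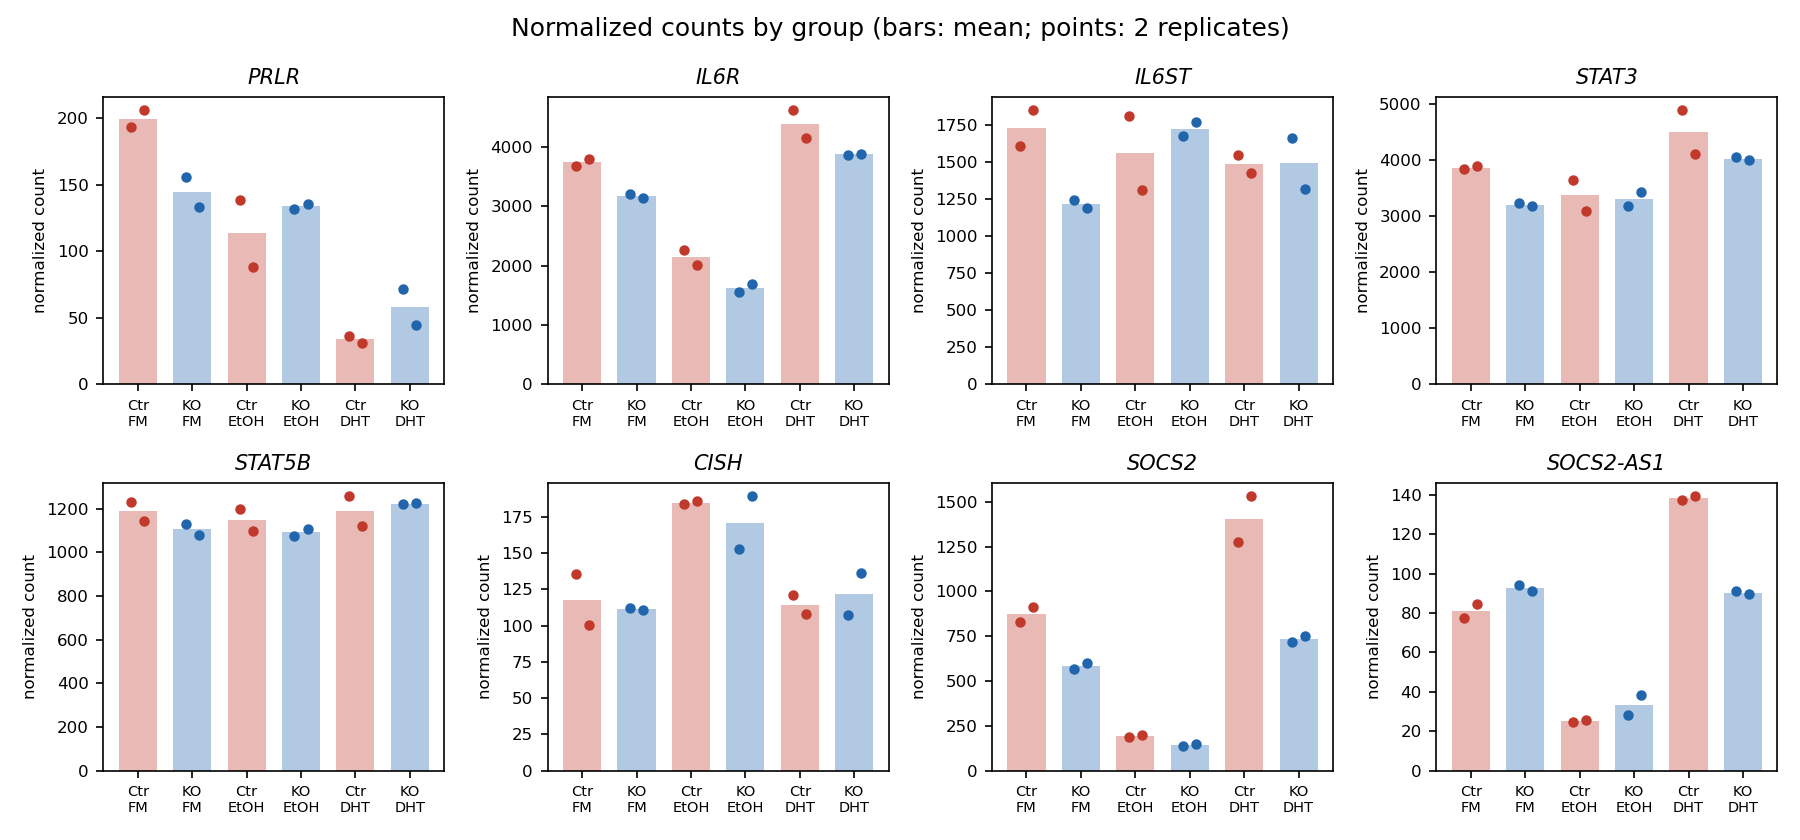
Normalized counts (vertical axes, from 0) of 7 members and of the antisense gene SOCS2-AS1 in the 6 groups, with bars for the mean and points for the 2 replicates (red control, blue KO). SOCS2 lay at 139.0 to 198.9 in the 4 EtOH samples and at 714.8 to 1530.2 in the 4 DHT samples, while STAT5B stayed between 1076.1 and 1255.9 in all 12.

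Levels can be set side by side per kilobase of exon. In control EtOH, IL6R (306) and STAT3 (301 normalized counts per kb) were the most abundant members, and their replicates overlapped. IL6ST (129), STAT5B (94.7), CISH (36.6), SOCS2 (29.9) and PRLR (8.75 normalized counts per kb) followed, each apart from the next in both replicates. SOCS1 (5.16) and SOCS3 (4.76) overlapped, and STAT5A was lowest at 0.152 normalized counts per kb. With DHT in control, SOCS2 stood below IL6R and STAT3 at 217 normalized counts per kb, above IL6ST at 123 and STAT5B at 98.2. In KO with DHT the level of SOCS2, 113 normalized counts per kb, overlapped that of IL6ST, 124. PRLR dropped to 2.6 normalized counts per kb with DHT in control and then overlapped SOCS1.

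The prolactin receptor PRLR (ENSG00000113494, GRCh37 chr5:35048861-35230589, minus strand) is the cell surface entry point of prolactin signalling. Its normalized counts were 138.9 and 88.5 in control EtOH and 36.3 and 31.3 in control DHT. In KO they were 132.2 and 135.5 in EtOH and 71.8 and 44.8 in DHT. The EtOH and DHT samples did not overlap in either line. With 2 samples in each group such a gap can arise by chance, for this gene and for the members below. The share of all genes with such a gap between EtOH and DHT was not computed. PRLR was lower with DHT in control (log2 fold change -1.75, SE 0.31, adjusted p = 2.96e-07) and in KO the log2 fold change was -1.19 (SE 0.28, adjusted p = 0.000421). The KO response differed from the control response by 0.57 (95% interval -0.25 to 1.38, adjusted p = 1), so the responses could not be separated. Without replicate 2 of KO DHT the call in KO was lost (log2 fold change -0.90, adjusted p = 0.0711). Between the lines, the DHT samples did not overlap either, with KO above control by 0.80 on the log2 scale (SE 0.32), but the adjusted p was 0.067. That difference was called when control EtOH replicate 1 (adjusted p = 0.0365), control EtOH replicate 2 (0.033) or KO DHT replicate 2 (0.036) was left out.

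IL6R (ENSG00000160712, GRCh37 chr1:154377669-154441926, plus strand) encodes the subunit that binds interleukin-6. It had 2269.6 and 2012.3 normalized counts in control EtOH and 4620.8 and 4151.9 in control DHT. The KO samples held 1555.3 and 1696.8 in EtOH and 3869.4 and 3879.5 in DHT. Each DHT sample lay above each EtOH sample in both lines. The log2 fold change with DHT was 1.03 in control (SE 0.11, adjusted p = 1.68e-20) and 1.25 in KO (SE 0.11, adjusted p = 2.58e-29), with a difference of 0.22 (95% interval -0.08 to 0.51, adjusted p = 1). In EtOH, IL6R was 1.32-fold lower in KO than in control (adjusted p = 0.00484), which is under the 1.5-fold limit. IL6R-AS1, a non-coding gene that overlaps IL6R on the other strand over 1372 bases, had 26.6 to 56.9 normalized counts across the samples.

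Steroid response elements, through which androgen and related hormones act on genes, contain copies of the half-site AGAACA. The half-site was searched on both strands in the 250 bases before each RefSeq start (GRCh38.p14), where it occurred in 12.4% of 35116 windows. The search covered 9 of the 10 members, with 13 windows. SOCS2, the member that moved most with DHT, had no window and was not searched. AGAACA was found in 4 windows of 3 members: PRLR, IL6R and STAT5A. The PRLR match lies before an internal start, and the PRLR window at the upstream end of the gene (chr5:35230488-35230737) held none. The STAT5A matches lie in overlapping windows and are the same site. The matches of both called receptor genes are shown because these genes moved in opposite directions with DHT, and a hexamer is a description, not a binding site. Capitals mark the match, read on the strand of the gene, so that the IL6R match appears as its reverse complement.
PRLR, chr5:35118238-35118267, minus strand, positions -145 to -116 from the start: aaaacaaattccAGAACActagagctgtct
IL6R, chr1:154405191-154405220, plus strand, positions -152 to -123 from the start: ctggcggtccccTGTTCTccccgctcaggt

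IL6ST (ENSG00000134352), the gp130 chain that carries the signal of interleukin-6 and its relatives, ranged from 1188.1 to 1850.0 normalized counts. Its values were 1808.1 and 1309.0 in control EtOH and 1545.7 and 1423.3 in control DHT, which overlapped. The KO samples held 1672.9 and 1770.2 in EtOH and 1665.2 and 1317.7 in DHT, with DHT just below EtOH. The log2 fold change with DHT was -0.07 (95% interval -0.39 to 0.24) in control and -0.21 (-0.52 to 0.11) in KO.

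Of the STAT genes, STAT3 mediates the interleukin-6 response, and STAT5A and STAT5B mediate the response to prolactin. STAT3 had 3648.5 and 3097.5 normalized counts in control EtOH and 4890.4 and 4115.5 in control DHT. In KO, it had 3176.2 and 3435.9 in EtOH and 4051.7 and 3994.1 in DHT. DHT samples were above EtOH samples in each line, by 0.42 on the log2 scale in control (SE 0.12, 1.33-fold, adjusted p = 0.00371) and 0.28 in KO (SE 0.12, adjusted p = 0.102). Neither change reached 1.5-fold. STAT5B had 1076.1 to 1255.9 normalized counts over all 12 samples, a ratio of 1.17 between the highest and the lowest sample. Its log2 fold change was 0.05 with DHT in control (95% interval -0.17 to 0.27) and 0.16 in KO (-0.06 to 0.39), so the intervals leave no room for a 1.5-fold change in either direction.

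STAT5A was close to absent. It had 0 to 9 reads per sample, and 7 samples held no more than 3 reads, the floor used here, which equals 0.0988 to 0.144 CPM (counts scaled to a common total) at these depths. By coordinates its gene overlaps STAT5B on the other strand over 1087 bases. In addition, 7.56% of the 50-base words of its transcripts also occur in other genes, as do 5.46% for STAT5B, and reads placed at several positions had not been counted. Its level is therefore uncertain, and no fold change is given.

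**Figure D2:**
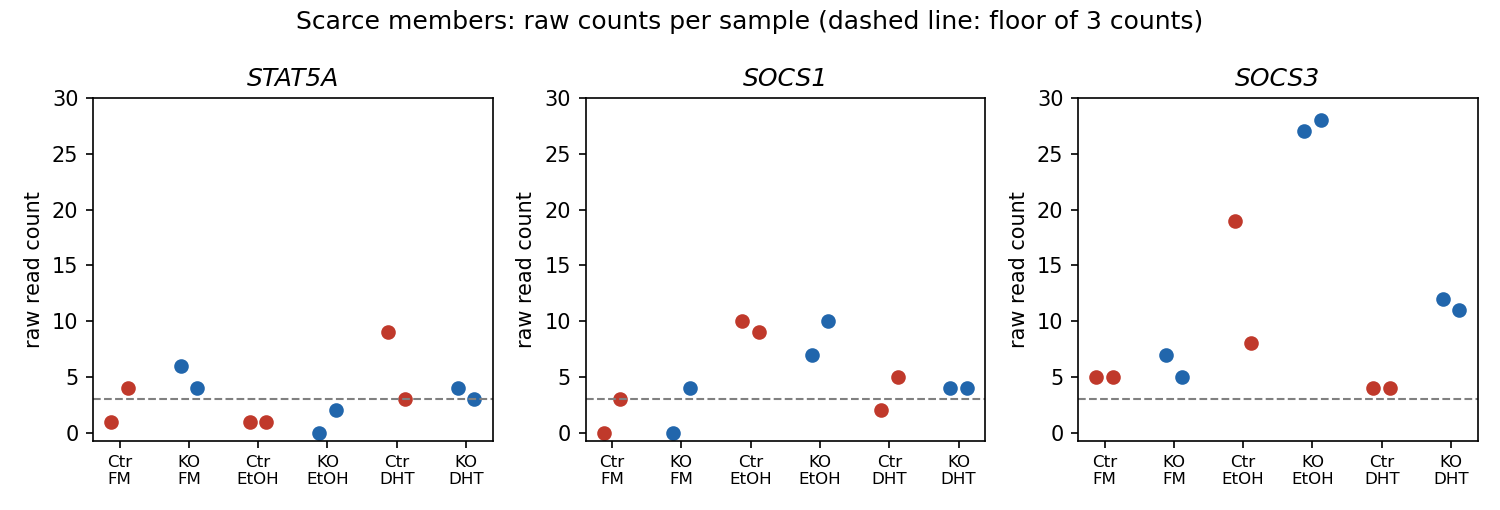
Raw read counts (vertical axes) of STAT5A, SOCS1 and SOCS3 in each of the 12 samples, grouped along the horizontal axis (red control, blue KO), with the floor of 3 reads as a dashed line. STAT5A reached at most 9 reads and SOCS1 at most 10, and SOCS3 was highest in KO EtOH with 27 and 28 reads.

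The SOCS family and CISH act as feedback inhibitors. SOCS2 (ENSG00000120833, GRCh37 chr12:93963590-93977263, plus strand) encodes a protein that restrains growth hormone and prolactin signalling. Its normalized counts were 188.4 and 198.9 in control EtOH and 1278.1 and 1530.2 in control DHT. In KO, they were 139.0 and 150.6 in EtOH and 714.8 and 749.0 in DHT. All DHT samples were well above all EtOH samples, and the KO samples lay below the control samples in each condition without overlap. DHT changed SOCS2 by 2.86 on the log2 scale in control (SE 0.15, adjusted p = 4.22e-80) and 2.33 in KO (SE 0.16, adjusted p = 1.79e-47). The KO response was smaller by 0.52 on the log2 scale (log2 difference -0.52, 95% interval -0.95 to -0.10), which had an unadjusted p of 0.0153 and an adjusted p of 0.774 over all genes. Hence a smaller rise of SOCS2 in KO was not established, although its DHT level was lower there.

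SOCS2-AS1 is a non-coding gene that starts within SOCS2 on the other strand and overlaps it over 1955 bases. Control samples held 24.7 and 25.9 normalized counts in EtOH and 137.3 and 139.2 in DHT. KO samples held 28.3 and 38.6 in EtOH and 91.2 and 89.6 in DHT. It rose with DHT by 2.45 on the log2 scale in control (SE 0.30, adjusted p = 2.9e-14) and by 1.42 in KO (SE 0.29, adjusted p = 2.86e-05). The difference between these rises was -1.03 (95% interval -1.85 to -0.20, adjusted p = 0.769). The library kit kept strand, but the strand setting used in counting was not stated, so reads of SOCS2 and its antisense partner may not be separate.

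CISH (ENSG00000114737, minus strand of GRCh37 chromosome 3) encodes the founding member of the SOCS family, a classical STAT5 target. It had 183.7 and 186.0 normalized counts in control EtOH and 121.1 and 107.9 in control DHT. In KO, it had 152.6 and 189.2 in EtOH and 107.3 and 136.5 in DHT. The EtOH and DHT samples were apart in both lines, with EtOH higher. The log2 fold change with DHT was -0.69 in control (SE 0.23, adjusted p = 0.0171) and -0.50 in KO (SE 0.23, adjusted p = 0.152). The call in control was lost without any one of the 4 control replicates compared, with an adjusted p between 0.0521 and 0.15, and in a fit of the compared samples alone (adjusted p = 0.152).

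The windows searched for the half-site were also searched for STAT motifs. SOCS2 had no window and was not searched, and bases outside the windows were not read for any member. STAT dimers bind the motif TTCNNNGAA, which reads the same on both strands. It occurred in 6.57% of the 35116 windows of 250 bases before a RefSeq start, and among the members with a window only in CISH. The CISH window held 4 matches, beginning at positions -241, -230, -129 and -112 from the start, and 5 of all windows (0.0142%) held 4 or more. The stretches are shown because this is the only window of a member, among those searched, that held the motif. Capitals mark the motif, and the build is GRCh38.p14.
CISH, chr3:50611991-50612020, minus strand, positions -246 to -217 from the start: ccgttTTCCTGGAAagTTCTTGGAAatctg
CISH, chr3:50611775-50611907, minus strand, positions -133 to -1 from the start: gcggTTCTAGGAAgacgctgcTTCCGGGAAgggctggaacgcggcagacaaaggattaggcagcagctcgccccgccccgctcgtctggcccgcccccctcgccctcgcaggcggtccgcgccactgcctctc

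SOCS3, the inhibitor most closely tied to gp130 and STAT3, had few reads. Its samples held 19 and 8 reads in control EtOH and 4 and 4 in control DHT. The KO samples held 27 and 28 reads in EtOH and 12 and 11 in DHT. EtOH samples were above DHT samples in each line. DESeq2 gave a log2 fold change of -1.69 in control (SE 0.79, adjusted p = 0.121) and -1.46 in KO (SE 0.64, adjusted p = 0.124), and edgeR's quasi-likelihood test called both lower (adjusted p = 0.0402 and 0.0186). SOCS1, which blocks the Janus kinases directly, had 0 to 10 reads per sample and 4 samples at or under the floor. Its 4 EtOH samples held 7 to 10 reads and its 4 DHT samples 2 to 5. SOCS1 received no adjusted p, and its unadjusted DESeq2 p for DHT was 0.203 in control and 0.238 in KO. SOCS1 lies wholly within the span of RMI2 on the other strand, over 1788 bases, which adds to the doubt about its reads.

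**Figure D3:**
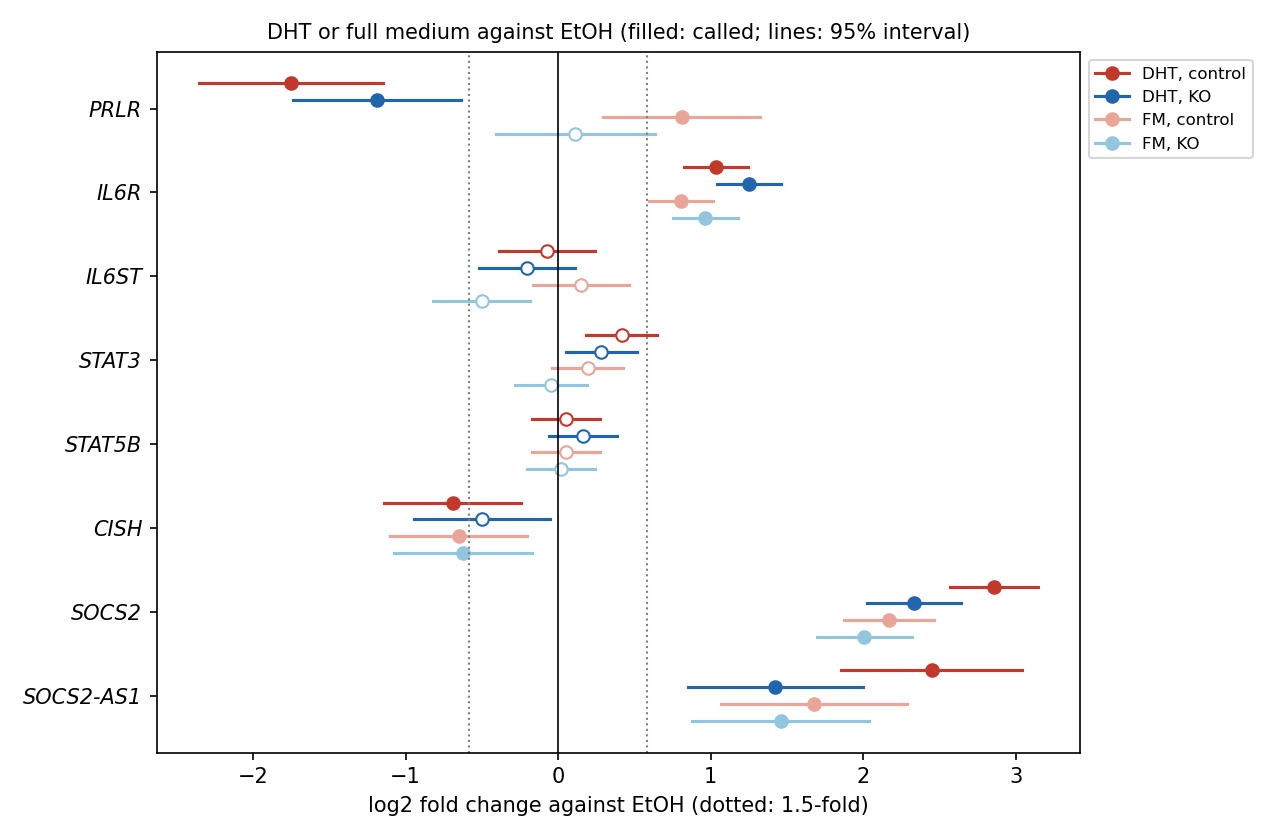
Log2 fold change against EtOH (horizontal axis, with 95% intervals) of 7 members and SOCS2-AS1 for DHT and for FM in each line, filled where called, with dotted lines at 1.5-fold. SOCS2 and IL6R lie to the right in all 4 comparisons, and PRLR lies at -1.75 and -1.19 with DHT but at 0.81 and 0.11 in FM.

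Whether the response to DHT depended on Bag-1L was asked by the difference between the responses of the lines. None of the 10 members was called for it (DESeq2, 7 with an adjusted p), where 0.408% of all genes tested were called. SOCS2 was the member with an unadjusted p under 0.05, and edgeR called none either.

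At the level of single conditions, the KO samples of SOCS2 and of IL6R lay below the control samples without overlap in EtOH, DHT and FM. With 2 samples in each group, samples can lie apart in this way by chance. The share of all genes that did so was not computed, and IL6R was called in none of the 3 conditions. With DHT, 1 member was called, SOCS2, where 7.98% of all genes were called. Its log2 fold change, KO against control, was -0.94 with DHT (SE 0.13, 1.92-fold lower, adjusted p = 2.34e-10). In EtOH it was -0.42 (SE 0.17, adjusted p = 0.105). Control FM samples held 829.4 and 915.3 normalized counts and KO FM samples 569.0 and 599.5, a log2 fold change of -0.58 (SE 0.14, adjusted p = 0.000621) and 1.49-fold lower, just under the limit. SOCS2 in FM was called when control replicate 1 or KO replicate 2 of FM was left out (-0.65 and -0.62). No member was called in EtOH, where 5.11% of all genes were called, or in FM, where 8.01% were. In EtOH, 2 members had an unadjusted p under 0.05 and in FM 4, and edgeR called none in either. IL6ST in FM had 1605.7 and 1850.0 normalized counts in control and 1244.2 and 1188.1 in KO (log2 fold change -0.51, SE 0.16, adjusted p = 0.0148), short of 1.5-fold, and was called without control FM replicate 1 (-0.61, adjusted p = 0.0377). The log2 fold change of IL6R was -0.40 in EtOH (SE 0.11, adjusted p = 0.00484), -0.18 in DHT (SE 0.11, adjusted p = 0.26) and -0.24 in FM (SE 0.11, adjusted p = 0.102). The log2 fold change of PRLR in FM was -0.46 (SE 0.26, adjusted p = 0.209), and that of STAT5B lay between -0.10 and 0.04 in the 3 conditions. SOCS3, with few reads, was higher in KO without overlap in EtOH (log2 fold change 1.12, SE 0.63, adjusted p = 0.315). It was also higher without overlap in DHT (1.35, SE 0.795, no adjusted p), and in FM its log2 fold change was 0.22 (SE 0.81, no adjusted p).

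**Figure D4:**
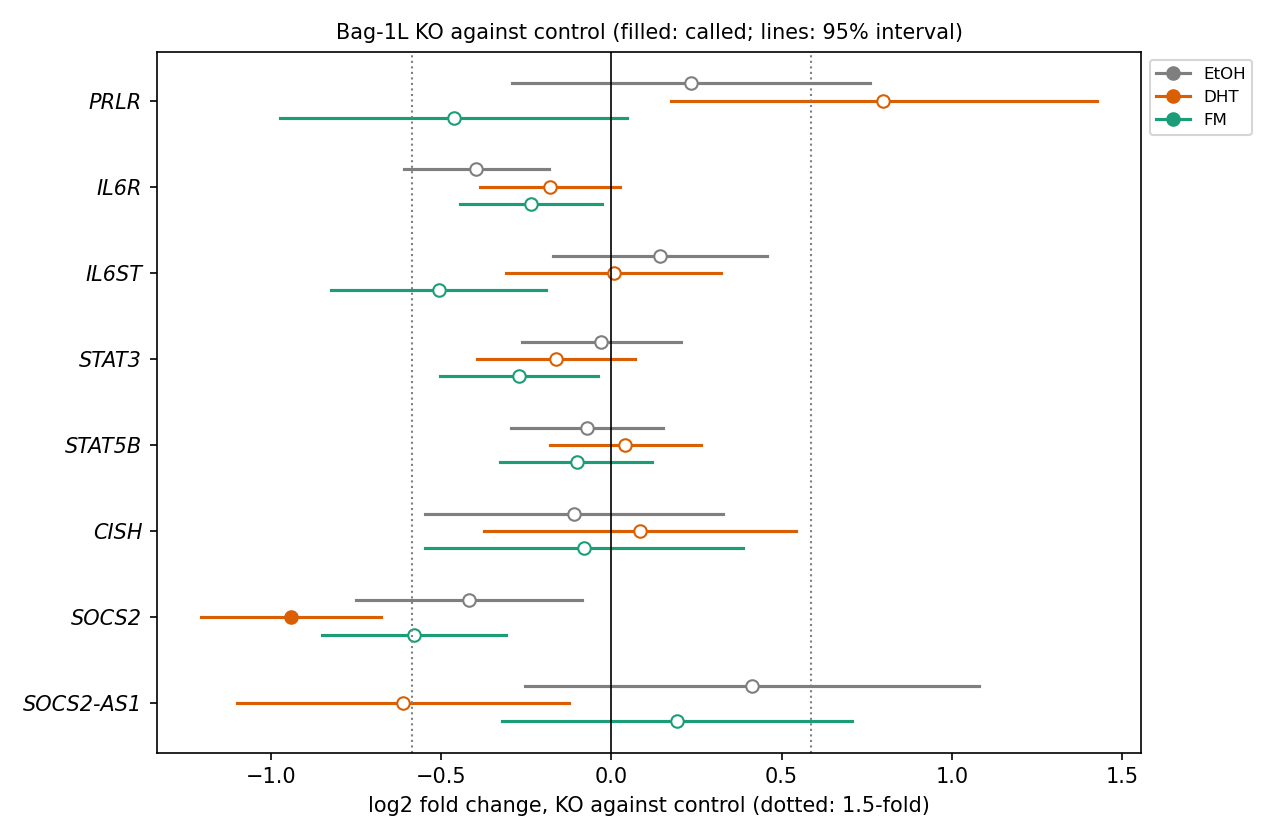
Log2 fold change of KO against control (horizontal axis, with 95% intervals) of 7 members and SOCS2-AS1 in EtOH, DHT and FM, filled where called, with dotted lines at 1.5-fold. SOCS2 lies at -0.42, -0.94 and -0.58, and STAT5B lies close to 0 in every condition.

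The genes around SOCS2 gave a background for its lower level in KO. Among tested genes within 1 Mb of SOCS2, the median log2 fold change of KO against control was -0.17 in EtOH over 13 genes, -0.31 in DHT over 12 and -0.26 in FM over 12. None of them was called in EtOH or DHT, and 2 were called lower in FM. SOCS2-AS1, whose reads may not be separate from those of SOCS2, is among these genes. Its log2 fold change was 0.41 in EtOH, -0.61 in DHT and 0.19 in FM, so the neighbours are not fully independent of SOCS2. The part of these neighbours in the SOCS2 result was not tested. Around IL6R the medians were 0.00, -0.06 and 0.09 in the same order.

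FM differs from EtOH in more than hormone. Per the study's methods, starved cells were kept in phenol red-free medium with charcoal-stripped serum, and the EtOH cells also received vehicle. These parts cannot be told apart here. The EtOH samples are also the same ones that DHT was compared with. SOCS2 and IL6R were higher in FM than in EtOH in both lines, and CISH was lower in both. In control, 4 members were called, 3 higher and 1 lower, where 21.3% of all genes were called. In KO, 4 members were called, 2 higher and 2 lower, against 19.3% of all genes. SOCS2 was higher in FM by 2.17 on the log2 scale in control (SE 0.15, adjusted p = 3.19e-45) and by 2.01 in KO (SE 0.16, adjusted p = 9.76e-35). IL6R had 3687.4 and 3794.4 normalized counts in control FM and 3211.3 and 3145.6 in KO FM, a rise over EtOH of 0.81 (SE 0.11, adjusted p = 1.18e-12) and 0.97 (SE 0.11, adjusted p = 1.01e-17). Both genes were thus called in the same direction with DHT and in FM.

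PRLR differed from that pattern. In FM it had 193.3 and 206.2 normalized counts in control, above both EtOH samples, and 155.8 and 133.7 in KO, overlapping EtOH. It was called higher in control (log2 fold change 0.81, SE 0.26, adjusted p = 0.0081) and had 0.11 in KO (SE 0.26, adjusted p = 0.801), with a difference of -0.70 (adjusted p = 0.343). The call in control was lost without control FM replicate 2 (adjusted p = 0.0983) or control EtOH replicate 2 (0.166). CISH had 135.8 and 100.2 normalized counts in control FM and 111.9 and 110.7 in KO FM, a log2 fold change of -0.65 (SE 0.23, adjusted p = 0.0159) and -0.62 (SE 0.23, adjusted p = 0.0261). SOCS3 was called lower in FM in KO, with 27 and 28 reads in EtOH against 7 and 5 (log2 fold change -2.24, SE 0.70, adjusted p = 0.00651). In control it had 19 and 8 reads in EtOH against 5 and 5 and was not called (-1.33, SE 0.75, adjusted p = 0.166). The SOCS3 responses of the lines differed by -0.90 (SE 1.03, no adjusted p). The CISH and SOCS3 calls in KO were lost without KO FM replicate 1, KO FM replicate 2 or KO EtOH replicate 2, with adjusted p between 0.0571 and 0.324, and the CISH call in control without control FM replicate 2 (adjusted p = 0.283), either control EtOH replicate (up to 0.0692), or in a fit of the compared samples alone (0.074). SOCS1 in control, with 0 and 3 reads in FM against 10 and 9 in EtOH, was called lower by edgeR alone (adjusted p = 0.0498). None of the 10 members was called for the difference between the FM responses, where 1.39% of all genes were, and edgeR called none. Only IL6ST had an unadjusted p under 0.05 there (log2 difference -0.65, SE 0.23, adjusted p = 0.119), and without control EtOH replicate 1 it and PRLR were called (adjusted p = 7.77e-05 and 0.032).

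The members were set beside 62 other genes of the pathway found in the files, of which 56 passed the count minimum. With DHT in control, 12 of the 49 with an adjusted p were called, 8 higher and 4 lower, beside 11.4% of all genes. In KO 7 of the 49 were called, 6 higher and 1 lower, beside 7.68%. The count in KO was 3 or 4 when any single FM, KO EtOH or KO DHT replicate was left out, and that in control was 7 in a fit of the compared samples alone. None of the 62 was called for the difference in DHT response (2 had an unadjusted p under 0.05, and edgeR called none). Only 41 of the 62 had an adjusted p there. The 2 genes, CNTFR and IL27RA (log2 differences of 1.55 and 2.58), had none, so DESeq2 could not have called them. Over the 49 with an adjusted p for DHT against EtOH, the median log2 fold change was 0.02 (control) and 0.07 (KO). Over all genes it was -0.02 and -0.01.

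**Figure D5:**
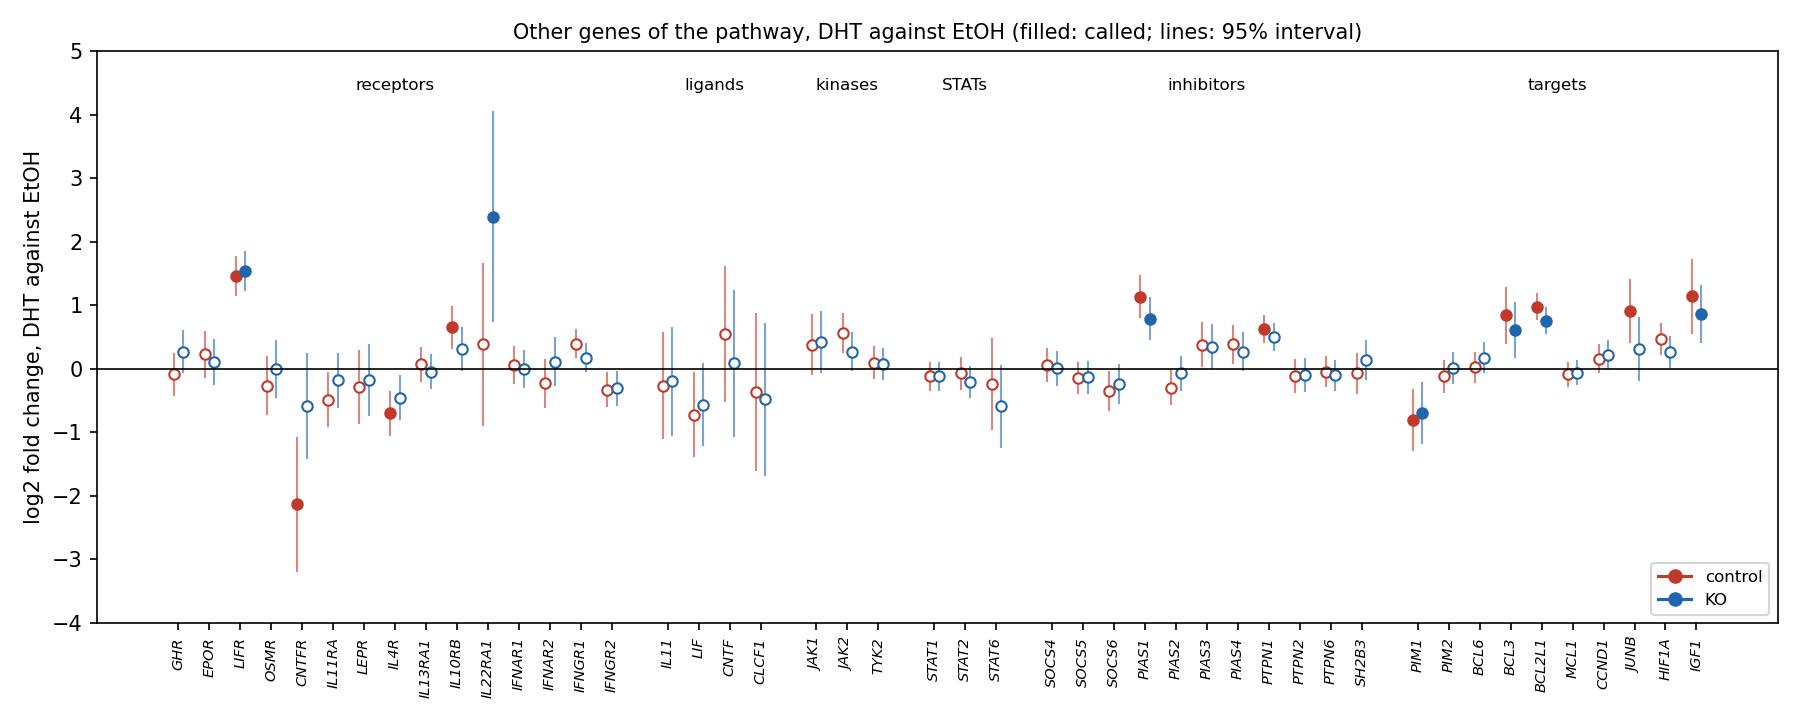
Log2 fold change with DHT against EtOH (vertical axis, with 95% intervals) of the 46 other pathway genes averaging 10 normalized counts or more, by role, in control (red) and KO (blue), filled where called. LIFR, PIAS1, BCL3, BCL2L1 and IGF1 are called higher in both lines, and PIM1 is called lower in both.

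Of 20 other receptor genes, 17 had an adjusted p with DHT. In control 5 were called, 2 higher and 3 lower, beside 11.4% of all genes, and in KO 2, both higher, beside 7.68%. LIFR, the leukaemia inhibitory factor receptor and a partner of gp130, had 1047.7 and 810.7 normalized counts in control EtOH and 2724.8 and 2395.7 in control DHT. In KO LIFR had 1097.6 and 1151.9 in EtOH and 3650.7 and 2902.4 in DHT. The log2 fold change of LIFR was 1.46 in control (SE 0.15, adjusted p = 4.28e-20) and 1.54 in KO (SE 0.15, adjusted p = 1.69e-22), so both IL6R and LIFR rose while their shared chain IL6ST was not called. CNTFR, the receptor of ciliary neurotrophic factor, was low, with 40.0 and 30.8 normalized counts in control EtOH and 7.1 and 9.1 in control DHT, and was called lower (log2 fold change -2.13, SE 0.53, adjusted p = 0.000709). In KO DHT, CNTFR had 36.3 and 34.9, above control by 2.14 on the log2 scale (SE 0.53, adjusted p = 0.000968). IL27RA in control (log2 fold change -2.17, adjusted p = 0.0267) and IL22RA1 in KO (2.40, adjusted p = 0.0355) were called with DHT at normalized counts of 29.5 or less. EPOR, the erythropoietin receptor, was called higher in KO in FM (log2 fold change 0.73, SE 0.18, adjusted p = 0.00109).

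The ligands and kinases frame the receptors. IL6 had 0 reads in every sample, and OSM, PRL and GH1 had at most 2, 1 and 1, so the cells' own transcripts of these ligands were not detectable at this depth. Other ligand transcripts were present at low levels. LIF had 20.4 to 106.6 normalized counts, IL11 20.2 to 46.4 and CNTF 10.0 to 37.5, while CLCF1 had at most 19.8 and CTF1 at most 6.6. Of 9 ligand genes 4 had an adjusted p, and none was called with DHT in either line (1 had an unadjusted p under 0.05, in control, and edgeR called none). The Janus kinase genes were present, with 97.0 to 220.1 normalized counts for JAK1, 234.8 to 374.2 for JAK2 and 1020.3 to 1668.3 for TYK2, and JAK3 had at most 15.1. None of the 4 kinase genes and none of the 4 further STAT genes, 3 of which had an adjusted p, was called with DHT in either line (in control, 1 and 0 had an unadjusted p under 0.05, in KO 0 and 0, and edgeR called none).

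Of 11 other inhibitor genes, 2 were called higher with DHT in control, beside 11.4% of all genes, and 1 in KO, beside 7.68%. PIAS1, an inhibitor of STAT binding to DNA and a SUMO ligase, rose from 673.7 and 496.4 to 1473.0 and 1103.5 normalized counts in control (log2 fold change 1.14, SE 0.17, adjusted p = 3.57e-10). In KO PIAS1 rose from 633.0 and 687.9 to 1142.4 and 1145.4 (0.79, SE 0.17, adjusted p = 4.7e-05). PTPN1, a phosphatase that acts on Janus kinases, was called higher in control (log2 fold change 0.63, SE 0.10, adjusted p = 1.8e-08). In KO, PTPN1 rose 1.42-fold, under the 1.5-fold limit (log2 fold change 0.51, SE 0.10, adjusted p = 1.69e-05). PTPN6, the phosphatase SHP-1, was called higher in KO in FM (0.67, SE 0.12, adjusted p = 1.63e-06).

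Of 14 genes listed as STAT targets, 10 had an adjusted p with DHT. In control 5 were called, 4 higher and 1 lower, beside 11.4% of all genes, and in KO 4, 3 higher and 1 lower, beside 7.68%. They did not move as a block. BCL2L1, which encodes the survival protein BCL-XL, had 2400.9 and 2382.3 normalized counts in control EtOH and 4946.9 and 4487.8 in control DHT (log2 fold change 0.98, SE 0.10, adjusted p = 2.11e-20), and its log2 fold change in KO was 0.76 (SE 0.10, adjusted p = 2.03e-12). BCL3 rose by 0.84 in control (adjusted p = 0.00117) and 0.61 in KO (adjusted p = 0.0368). JUNB rose by 0.91 in control (adjusted p = 0.00245), and its log2 fold change in KO was 0.31 (SE 0.25, adjusted p = 0.527). PIM1, a survival kinase gene induced by STAT5 and STAT3 in many cells, was lower by 0.80 on the log2 scale in control (log2 fold change -0.80, adjusted p = 0.00711) and had -0.69 in KO (adjusted p = 0.0352). IGF1, the growth factor gene, had 25.7 and 33.8 normalized counts in control EtOH against 97.2 and 96.9 in KO EtOH. With DHT, IGF1 had 74.7 and 56.5 normalized counts in control, against 179.9 and 174.3 in KO. IGF1 was higher in KO in EtOH (log2 fold change 1.71, SE 0.28, adjusted p = 1.31e-07), DHT (1.43, SE 0.24, adjusted p = 7.53e-08) and FM (1.52, SE 0.22, adjusted p = 5.56e-10), and rose with DHT in control (1.14, adjusted p = 0.000896) and KO (0.87, adjusted p = 0.00172).

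Between KO and control, 1 of 47 other pathway genes with an adjusted p was called in EtOH, each called gene being higher in KO. In DHT 2 of 46 were called and in FM 5 of 44. Of all genes tested, 5.11%, 7.98% and 8.01% were called in the same order. The count in EtOH was 3 with edgeR or without control EtOH replicate 1, that in DHT was 1 with a minimum of 10 reads in every sample, and that in FM was 2 or 3 without any single FM or KO EtOH replicate. In FM against EtOH, 10 of 51 were called in control, 4 higher and 6 lower, beside 21.3% of all genes. In KO 11 of 51 were called, 6 higher and 5 lower, beside 19.3%.

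Of the 11374 genes that averaged 100 normalized counts or more, those whose log2 level over the 12 samples was most like that of each member were found by Pearson correlation. The samples of a group and of a line are not independent of each other, so these values describe likeness only. FZD5 (0.991) and PELO (0.988) were among the 3 nearest to SOCS2, and TMCC3 (0.991), FZD5 (0.986) and PTPRM (0.985) to IL6R. NARS2 (0.981), GLCE (0.971) and STXBP5-AS1 (0.969) were nearest to PRLR. SEMA3G (0.930) and DTX4 (0.922) were among the 3 nearest to CISH. KDM5A (0.979), STAM2 (0.965) and CCNT2 (0.964) were nearest to IL6ST, OSBP (0.974), GOLGB1 (0.967) and AHNAK (0.963) to STAT3, and DVL3 (0.893), SETD1B (0.881) and SP2 (0.877) to STAT5B.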

How the data were processed

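RNA was extracted from 12 LNCaP samples, and poly(A) libraries were made with a stranded TruSeq kit. Per the labels and the study's methods, the authors processed the reads with CASAVA 1.7, mapped them to GRCh37 with TopHat2 2.0.11 and deposited read counts per Ensembl gene from HTSeq 0.5.3p3, with no normalization. The Ensembl release and strand setting are not given in the sources used here. HTSeq leaves out reads that map to several places or genes, so shared sequence lowers a count. The 5 tallies of unassigned reads were left out. Replicates were not pooled, and the labels call them biological replicates.

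The members and gene lists were chosen with earlier results of these data known. Genes with at least 10 reads summed over samples (26156) were fitted with DESeq2 1.42.0 in R 4.3.3, all 12 samples together with 1 coefficient for each group, Wald tests and unshrunken fold changes, as the study used DESeq2. The other pathway genes were named where called with DHT or between lines, at most 5 per role by absolute log2 fold change, and the likeness search took the 3 nearest genes to each member. Gene positions came from GENCODE on GRCh37 (55665 identifiers matched) and promoters from RefSeq (GRCh38.p14, 9 of 10 members, SOCS2 lacking one). Correlations of the deviations of same-numbered samples ran from -0.415 to 0.692, with 6 of 15 over 0.1, so the numbers were not taken as pairs and no block was used. Alternatives were edgeR 4.0.16 with TMM, TMM size factors, other count filters, the compared samples alone, a replicate block and each replicate left out. Some planned cell type markers and nearest genes are not reported here.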

Additional observations from a re-analysis of the deposited data

How the results depend on the processing

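The calls of SOCS2 and IL6R with DHT and in FM, and of SOCS2 between the lines with DHT, kept their direction and side of the threshold in all 18 alternative settings, and no called value changed sign. Of the counts over all genes, the difference in DHT response moved from 55 to 24 with edgeR and 19 with only the samples compared, and KO against control in EtOH from 844 to 531 with only the samples compared. The difference in FM response moved from 180 to 65 with edgeR and to 281 with the replicate block. Under the replicate block the counts of members called were 4, 3 and 0 for DHT in control, in KO and their difference, as without it, and the block changed no count of members called. The cause of these moves was not tested.

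With each replicate left out in turn, the counts over all genes were 720 to 1556 for KO against control in DHT, 480 to 1439 in EtOH, 520 to 1295 in FM, 16 to 155 for the difference in DHT response and 49 to 2124 for that in FM response. The counts of members called were 2 to 4 for FM in control and 2 to 4 in KO, 1 to 2 for KO against control in DHT, 0 to 2 in FM and 0 to 2 for the difference in FM response. A lone replicate was then assumed to vary like the other groups. Depth limits STAT5A, SOCS1 and SOCS3, and 2 replicates from 1 control and 1 KO line measure the spread of these samples alone.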
